A study of Mus musculus with 14 samples.

Results

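The complement and coagulation factors are 38 plasma protein genes, 18 of complement and 20 of coagulation and fibrinolysis, chosen by symbol. In the 5-week table of the authors, 36 were found by symbol. C1ra was found by its accession under the older symbol C1r, and Klkb1 was not found there and is not described. The 37 genes measured, 18 complement and 19 coagulation genes, stand among 12871 named genes.

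The liver RNA came from male mice on the C57/BL6J background (the labels leave out the leading C), hybridised to Affymetrix arrays. The genotypes were compared at 5 weeks of age, with 2 samples of each: miR-122 knockout livers (miR-122loxP/loxP Alb-Cre) and control livers (miR-122loxP/loxP, titled wild type). All 4 samples therefore carry floxed miR-122 alleles by their genotype labels, and the knockout adds Cre from the albumin promoter, which is active in hepatocytes. The series' design text instead calls the 5-week knockout germ-line, so the cells that lack miR-122 are not settled by the labels. The labels do not say whether each sample came from a separate mouse, so the p-values measure only the spread between these samples, which may be technical. Another 10 samples, 5 knockout and 5 control at 8 weeks, are not described, because no gene names for their probe sets were among the sources used here.

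Complement is a cascade of plasma proteins that marks microbes and altered cells and can end in a pore in their membrane. It starts from mannose-binding lectins (lectin pathway), from C1 bound to antibody (classical pathway) or from spontaneously activated C3 (alternative pathway), and the 3 routes meet at C3. Coagulation is a chain of serine proteases and cofactors that ends when thrombin turns fibrinogen into fibrin, and plasmin later dissolves the clot. Hepatocytes make most of these proteins and release them into blood, and several clotting proteases work only after a vitamin K-dependent modification in the liver.

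At 5 weeks, 8 of the 37 factors fell in knockout livers and none rose, these words being kept for an adjusted p under 0.05 (limma, Benjamini-Hochberg over all 12871 genes). The 8 were the mannose-binding lectin genes Mbl2 and Mbl1, their protease gene Masp2, the membrane pore genes C9 and C8g, and the clotting protease genes F7, F9 and F10. They made up 21.6% of the factors, while 15.0% of all genes passed, 4.15% having fallen and 10.8% risen. The falls ranged from a log2 difference of -0.42 for F10 to -1.17 for Mbl2, that is from 1.34 to 2.25 times lower. Both knockout values lay below both control values in 23 of the 37 factors (62.2%), against 27.0% of all genes, and above both in 5 (13.5%), against 32.1% of all genes. In this main limma fit no factor rose at the adjusted threshold, and 1 of them, C4bp, was higher at an unadjusted p under 0.05. C4bp missed the adjusted threshold narrowly (adjusted p = 0.0502) and passed under 4 of 8 alternatives that kept all arrays.

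Levels are log2 RMA signals of a probe set and differences are knockout minus control on that scale. All calls need the 4 arrays together: with any 1 array left out, limma called 0 of the 12871 genes. At an unadjusted p under 0.05 it then had 7 to 14 of the 37 factors lower and 0 to 5 higher, beside 659 to 1400 of all genes lower and 1580 to 2214 higher. A fit over all 35556 probe sets of the value table, an alternative chosen after seeing the data, also called 0 factors, with 13 lower and 1 higher at an unadjusted p under 0.05. With each array centred on the median of its named genes alone, 13 factors fell and none rose. The share of calls that were higher over all genes was then 55.9%, against 72.3% as deposited. Over all 35556 probe sets, the array medians already lay between 5.920 and 5.960. As the array measures bulk tissue, fewer cells of a type and less RNA per cell cannot be told apart.

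**Figure D1:**
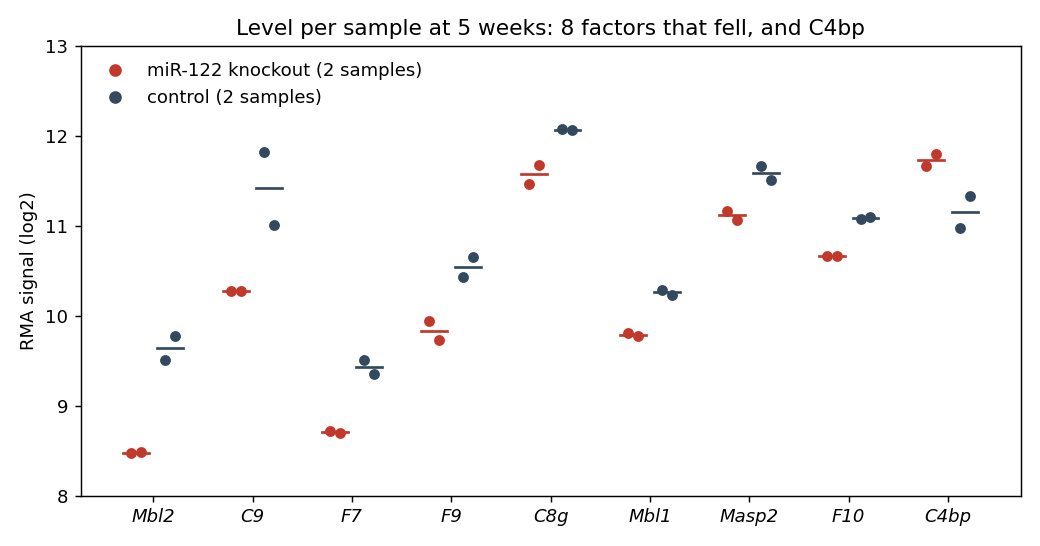
RMA signal (log2, vertical axis) of the 8 factors that fell and of C4bp in each 5-week sample, with 2 knockout samples (red, left) and 2 control samples (dark, right) per gene; bars mark group means. Both knockout samples sit below both control samples for the 8 genes from Mbl2 to F10, and above both for C4bp.

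The differences were spread differently in complement and coagulation. The median log2 difference was -0.22 for complement (quartiles -0.44 and 0.18) and -0.26 for coagulation (quartiles -0.39 and -0.09), beside 0.0050 for all genes (quartiles -0.16 and 0.22). Of the complement genes, 5 of 18 fell and 10 had a lower mean in knockout livers. Of the coagulation genes, 3 of 19 fell and 18 had a lower mean. Complement differences ran from -1.17 for Mbl2 to 0.58 for C4bp with an SD of 0.48 across genes, and coagulation differences from -0.72 for F7 to 0.19 for Fga with an SD of 0.24. Complement held the 2 largest falls and 8 of the 9 higher means. The signs of Fgg and F12, both close to 0, were not settled. Nor were those of C2, C6, C8b and Cfi among the higher complement means. Without control replicate 2 the differences were -0.10 for C2, -0.54 for C6 and -0.22 for C8b. Without control replicate 1 that of Cfi was -0.055. No test was run between the 2 classes.

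**Figure D2:**
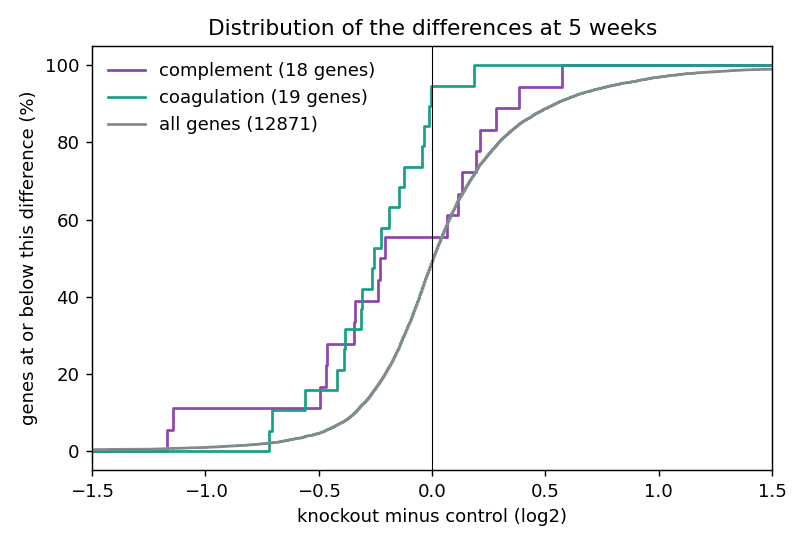
Cumulative share of genes (%, vertical axis) against the knockout minus control difference (log2, horizontal axis) for 18 complement genes, 19 coagulation genes and all 12871 genes. The coagulation curve reaches 94.7% below 0 and the complement curve 55.6%, against 48.9% of all genes.

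The region upstream of the annotated start is shown for 6 factors on which the results turn: the 4 with the largest falls (Mbl2, C9, F7 and F9), the one with the largest higher mean (C4bp) and a fibrinogen chain that did not pass (Fgb). The sequences are the 250 bases before the RefSeq start on GRCm38.p6, written 5′ to 3′ on the strand of the gene. They lie at chr19:30232678-30232927 (Mbl2), chr15:6445096-6445345 (C9), chr8:13025784-13026033 (F7) and chrX:59999214-59999463 (F9), all on the plus strand. Those of C4bp at chr1:130661619-130661868 and Fgb at chr3:83049864-83050113 are on the minus strand. Capitals mark matches, on either strand, to the letters GTTAAT or to the C/EBP core TTGCNNAA, which do not overlap here; C/EBP proteins are transcription factors found in hepatocytes.
Mbl2: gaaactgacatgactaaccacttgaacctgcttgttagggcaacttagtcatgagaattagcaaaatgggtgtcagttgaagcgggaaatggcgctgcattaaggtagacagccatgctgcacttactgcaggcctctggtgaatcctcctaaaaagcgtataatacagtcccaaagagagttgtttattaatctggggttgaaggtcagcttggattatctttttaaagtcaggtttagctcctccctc
C9: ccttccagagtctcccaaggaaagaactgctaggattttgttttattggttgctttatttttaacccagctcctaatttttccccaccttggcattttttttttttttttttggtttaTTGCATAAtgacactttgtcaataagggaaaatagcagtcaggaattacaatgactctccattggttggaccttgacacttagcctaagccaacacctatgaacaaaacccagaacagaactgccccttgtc
F7: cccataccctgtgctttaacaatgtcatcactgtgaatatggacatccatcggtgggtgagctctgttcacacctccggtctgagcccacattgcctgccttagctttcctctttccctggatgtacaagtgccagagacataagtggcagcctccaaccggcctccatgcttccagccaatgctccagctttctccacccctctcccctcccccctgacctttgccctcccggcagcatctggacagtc
F9: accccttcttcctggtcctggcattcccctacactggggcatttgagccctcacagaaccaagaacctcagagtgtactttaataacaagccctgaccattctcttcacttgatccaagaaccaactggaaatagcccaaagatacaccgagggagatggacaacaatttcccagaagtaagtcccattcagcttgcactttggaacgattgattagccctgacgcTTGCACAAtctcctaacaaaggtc
C4bp: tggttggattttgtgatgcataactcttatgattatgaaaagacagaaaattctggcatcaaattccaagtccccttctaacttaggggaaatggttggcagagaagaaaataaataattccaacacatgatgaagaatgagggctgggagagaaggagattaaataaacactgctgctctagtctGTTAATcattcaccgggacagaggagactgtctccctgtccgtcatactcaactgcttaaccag
Fgb: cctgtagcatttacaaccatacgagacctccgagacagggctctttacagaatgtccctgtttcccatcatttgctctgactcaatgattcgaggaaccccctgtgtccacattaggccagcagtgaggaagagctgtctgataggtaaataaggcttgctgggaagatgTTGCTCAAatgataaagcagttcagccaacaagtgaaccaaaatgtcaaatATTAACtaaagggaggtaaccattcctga

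Of the 29 measured factors with an entry in the RefSeq promoter table, 9 (31.0%) held GTTAAT within these 250 bases, against 7.49% of all 27025 genes in that table. The core TTGCNNAA stood in 8 of the 29 (27.6%), against 10.8% of all. The HNF4 site CAAAGTCCA stood in 0 of the 29, against 0.451% of all, and the TATA box TATAAA in 2 (6.90%), against 14.3%; both strands were searched, and the 2 TATAAA matches of Vtn overlap. All 8 factors that fell had an entry: C9 and F9 held the C/EBP core, and none held GTTAAT. The 9 with GTTAAT were Hc, C8a, C8b, C1ra, C4bp, F13b, Fga, Fgb and Vtn, none of which passed. These matches are descriptions of letters in a window, with no test.

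In the lectin pathway, 3 of 4 genes fell, against 4.15% of all genes. Mbl2 encodes mannose-binding lectin C, which binds sugars on microbes. Its level was 8.47 and 8.48 in knockout livers, against 9.51 and 9.78 in control livers, a log2 difference of -1.17 ± 0.13 (SE, n = 2 each, adjusted p = 0.00465). The knockout samples lay about 1 log2 unit under the controls, with no overlap, and Mbl2 had the smallest p of all factors. Mbl1, the gene of mannose-binding lectin A, was at 9.81 and 9.77 in knockout livers, against 10.29 and 10.23 in control livers, a difference of -0.47 ± 0.10 (SE, adjusted p = 0.0316). Masp2 encodes the protease that, once bound to these lectins, cleaves C4 and C2. It stood at 11.17 and 11.07 in knockout livers, against 11.66 and 11.51 in control livers, a difference of -0.47 ± 0.11 (SE, adjusted p = 0.0431). Masp1, the gene of the companion protease, did not share this pattern. It was at 10.99 and 11.01 in knockout livers, against 10.96 and 10.65 in control livers, a difference of 0.20 (95% interval -0.13 to 0.52, adjusted p = 0.385). The call of Masp2 was lost with arrays quantile-normalised once more (adjusted p = 0.0629). With 1 array left out, no call passed, and the difference lay between -1.31 and -1.04 for Mbl2, between -0.50 and -0.44 for Mbl1 and between -0.54 and -0.39 for Masp2.

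No gene of the classical pathway passed. Both C1 protease genes lay lower in knockout livers without overlap, as did 27.0% of all genes. C1s, which cleaves C4 and C2, was at 9.02 and 9.05 in knockout livers, against 9.33 and 9.43 in control livers, a difference of -0.35 (95% interval -0.60 to -0.09, adjusted p = 0.0801). C1ra, which activates C1s, differed by -0.24 (95% interval -0.52 to 0.04, adjusted p = 0.219), and its probes may also read its close copy C1rb. These 2 genes are neighbours on the assembly. C4b, substrate of both lectin and classical proteases, was at 11.17 and 11.05 in knockout livers, against 11.39 and 11.25 in control livers. Its difference of -0.21 (95% interval -0.49 to 0.07, adjusted p = 0.273) is uncertain, since its probes may also read the near-identical C4a. C2, the protease partner of C4b, overlapped, with 9.08 and 8.88 in knockout livers, against 9.08 and 8.46 in control livers. Its difference of 0.21 (adjusted p = 0.559) turned to -0.10 without control replicate 2.

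C3, where all routes meet, and Cfb, the protease of the alternative pathway, had slightly higher knockout values without passing. C3 was at 13.24 and 13.25 in knockout livers, against 13.08 and 13.18 in control livers, a difference of 0.12 (95% interval -0.14 to 0.37, adjusted p = 0.515). Cfb was at 11.52 and 11.56 in knockout livers, against 11.34 and 11.48 in control livers, a difference of 0.13 (95% interval -0.14 to 0.40, adjusted p = 0.477). Cfb and C2 are neighbours, with no protein-coding gene between them on the assembly, and neither passed.

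Of the 6 terminal pathway genes, which encode parts of the membrane pore, 2 fell, against 4.15% of all genes. C7, a further pore gene outside the chosen factors, was at 6.60 and 5.99 in knockout livers, against 5.67 in both control livers. Its difference of 0.625 did not pass (adjusted p = 0.0920). C9, the protein that polymerises into the pore, was at 10.27 in both knockout livers, against 11.82 and 11.01 in control livers, a difference of -1.15 ± 0.25 (SE, n = 2 each, adjusted p = 0.0320). Its control samples were 0.81 apart, so that the size rests on them: the difference was -0.74 without control replicate 1 and -1.55 without control replicate 2, neither passing. C8g encodes the gamma chain of C8. It was at 11.47 and 11.68 in knockout livers, against 12.08 and 12.06 in control livers, a difference of -0.50 ± 0.12 (SE, adjusted p = 0.0401), and between -0.60 and -0.39 with 1 array left out, where no call passed. Its adjusted p was 0.0511 with arrays quantile-normalised once more. The other C8 chains, encoded by neighbouring genes, did not pass. C8a was at 10.38 and 10.36 in knockout livers, against 10.80 and 10.62 in control livers, a difference of -0.34 (95% interval -0.62 to -0.06, adjusted p = 0.100). C8b was at 11.98 and 12.04 in knockout livers, between the control values of 12.23 and 11.66, and its difference of 0.07 (adjusted p = 0.858) turned to -0.02 with arrays centred on their median and to -0.22 without control replicate 2. The difference between the C8 chains was not tested. Hc, the gene of C5, which starts pore assembly, differed by -0.23 (95% interval -0.51 to 0.05, adjusted p = 0.237). C6, which binds C5b, could not be placed: its level was 8.92 and 9.37 in knockout livers, between the control values of 9.68 and 8.05. Its difference of 0.28 had a 95% interval from -0.92 to 1.48, and was -0.54 without control replicate 2.

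Both complement inhibitor genes had higher means in knockout livers, in contrast to most of the cascade. C4bp encodes the binding protein that helps to inactivate C4b. It was at 11.66 and 11.80 in knockout livers, against 10.98 and 11.33 in control livers, a difference of 0.58 ± 0.15 (SE, n = 2 each, adjusted p = 0.0502). It missed the threshold narrowly, and passed under 4 of 8 alternatives that kept all arrays, with adjusted p from 0.0377 to 0.220. Cfi, the protease that degrades C3b and C4b, was at 11.16 and 11.43 in knockout livers, against 10.47 and 11.35 in control livers. Its difference of 0.39 (95% interval -0.30 to 1.07, adjusted p = 0.412) was -0.055 without control replicate 1.

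**Figure D3:**
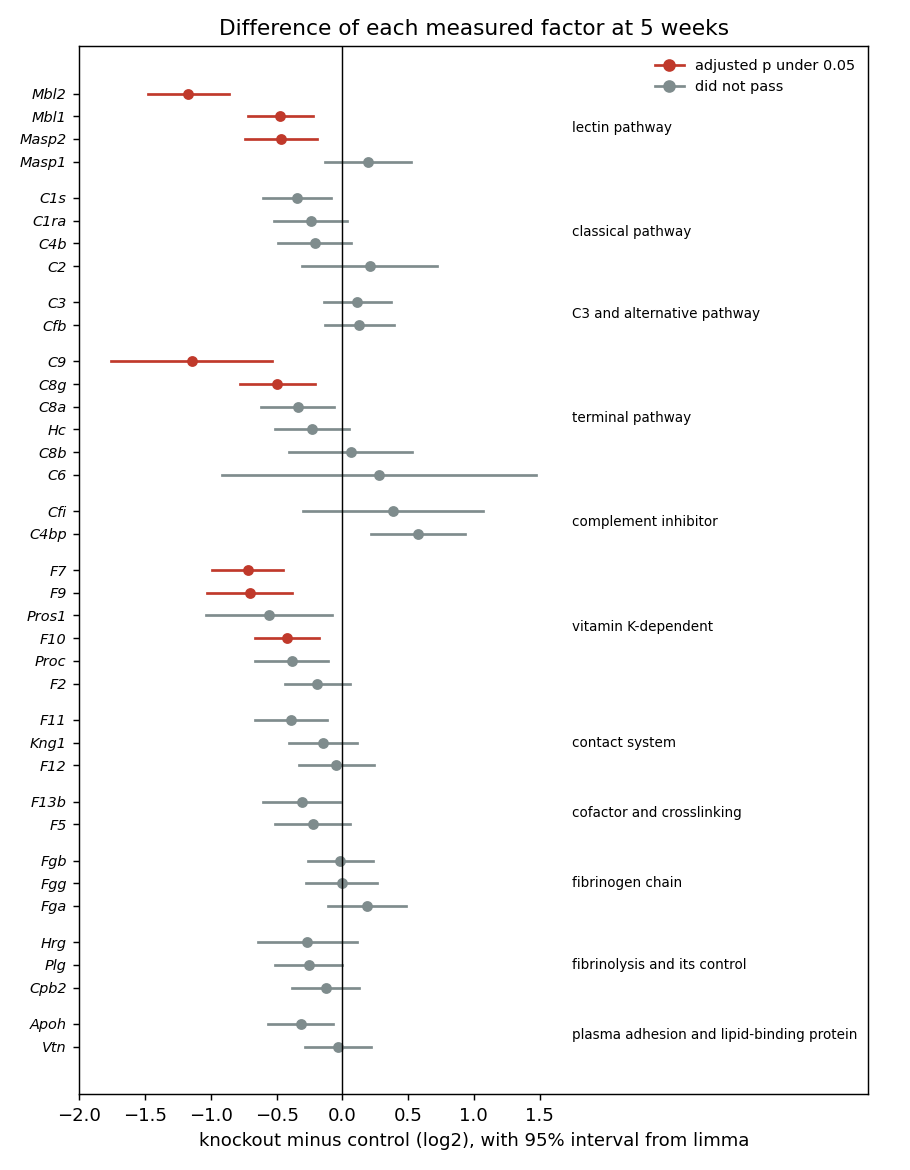
Knockout minus control difference (log2, horizontal axis) of each of the 37 factors, with its 95% interval from limma, grouped by role; red marks the 8 that fell. All 6 vitamin K-dependent genes lie below 0, the 3 fibrinogen chains lie between -0.02 and 0.19, and C6 has the widest interval.

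Of the 6 vitamin K-dependent coagulation genes, 3 fell, and all 6 had both knockout values below both control values. Over all genes, 4.15% fell and 27.0% had both knockout values below both control values. F7 encodes factor VII, which starts clotting together with tissue factor. Its level was 8.72 and 8.70 in knockout livers, against 9.51 and 9.35 in control livers, a difference of -0.72 ± 0.11 (SE, n = 2 each, adjusted p = 0.0115). F9 encodes factor IX, the protein lacking in haemophilia B. It was at 9.94 and 9.73 in knockout livers, against 10.43 and 10.65 in control livers, a difference of -0.71 ± 0.13 (SE, adjusted p = 0.0206). F10 encodes factor X, which activates prothrombin. It was at 10.67 in both knockout livers, against 11.08 and 11.10 in control livers, a difference of -0.42 ± 0.10 (SE, adjusted p = 0.0418). F7 and F10 are neighbours, with no protein-coding gene between them on the assembly, and both fell. The call of F10 was lost with arrays quantile-normalised once more (adjusted p = 0.0651). With 1 array left out, no call passed, and the difference lay between -0.80 and -0.64 for F7, between -0.82 and -0.60 for F9 and between -0.43 and -0.41 for F10.

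The other vitamin K-dependent genes include both arms of the protein C anticoagulant system. Proc, the gene of protein C, was at 10.64 and 10.59 in knockout livers, against 11.09 and 10.91 in control livers, a difference of -0.39 (95% interval -0.66 to -0.11, adjusted p = 0.0746). Pros1 encodes protein S, its cofactor. It was at 8.33 and 8.13 in knockout livers, against 9.07 and 8.51 in control livers. The difference of -0.56 (95% interval -1.04 to -0.08, adjusted p = 0.115) was -0.28 without control replicate 1 and -0.84 without control replicate 2. F2, the gene of prothrombin, averaged 12.01 ± 0.014 in knockout livers and 12.20 ± 0.028 in control livers (SD, n = 2 each). Its difference was -0.19 (95% interval -0.44 to 0.06, adjusted p = 0.267). Both its knockout values lay below both control values, as in 27.0% of all genes. Proc, Pros1 and F2 did not pass, and no difference between procoagulant and anticoagulant genes was tested.

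In the contact system, F11, the protease that activates factor IX, was at 8.86 and 8.98 in knockout livers, against 9.24 and 9.38 in control livers, a difference of -0.39 (95% interval -0.67 to -0.11, adjusted p = 0.0717). F12, which starts this route on charged surfaces, was at 11.44 and 11.41 in knockout livers, against 11.57 and 11.37 in control livers. Its difference of -0.05 (95% interval -0.33 to 0.24) turned to 0.016 with arrays quantile-normalised once more and to 0.055 without control replicate 1. Kng1, the source of bradykinin, differed by -0.15 (95% interval -0.40 to 0.11, adjusted p = 0.416), and its probes may also read its close copy Kng2. None of these 3 genes passed. Nor did F5, the cofactor of factor X, which differed by -0.23 (95% interval -0.51 to 0.06, adjusted p = 0.257). F13b, the carrier of the fibrin-crosslinking enzyme, differed by -0.31 (95% interval -0.60 to -0.02, adjusted p = 0.144). Both knockout values of F13b lay below both control values, as in 27.0% of all genes.

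The 3 fibrinogen chains, neighbours in a single cluster, did not pass and overlapped for Fgb and Fgg. Fgb was at 12.86 and 12.84 in knockout livers, against 12.86 and 12.87 in control livers, a difference of -0.02 (95% interval -0.26 to 0.23, adjusted p = 0.943). Fgg was at 13.02 and 12.95 in knockout livers, against 12.92 and 13.06 in control livers, a difference of -0.0050 (95% interval -0.27 to 0.26, adjusted p = 0.982). Its sign is not settled, as it was 0.03 without knockout replicate 2 and 0.065 without control replicate 2. Fga was at 11.21 and 11.20 in knockout livers, against 10.90 and 11.14 in control livers, a difference of 0.19 (95% interval -0.11 to 0.48, adjusted p = 0.364). A second, dimmer Fga probe set differed by 0.46, with 9.82 and 9.97 in knockout livers, against 9.18 and 9.70 in control livers. The intervals of Fgb and Fgg leave room for small changes in either direction.

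None of the 5 remaining genes passed. Plg encodes plasminogen, the precursor of plasmin. It was at 12.41 and 12.31 in knockout livers, against 12.63 and 12.60 in control livers, a difference of -0.26 (95% interval -0.51 to 0.0006, adjusted p = 0.164). Hrg, a plasma protein that binds heparin and plasminogen, differed by -0.27 (95% interval -0.64 to 0.11, adjusted p = 0.309), and Cpb2, which slows fibrin breakdown, by -0.13 (95% interval -0.38 to 0.13, adjusted p = 0.477). Apoh encodes beta-2-glycoprotein I, which binds anionic phospholipids. It was at 12.30 and 12.27 in knockout livers, against 12.59 and 12.61 in control livers, a difference of -0.32 (95% interval -0.56 to -0.07, adjusted p = 0.0922). Vtn, the gene of the adhesion protein vitronectin, was at 13.04 and 13.01 in knockout livers, against 13.09 and 13.03 in control livers, a difference of -0.04 (95% interval -0.28 to 0.21, adjusted p = 0.857).

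The group means of the authors' deposited table matched those of the single samples within 0.0050, the rounding of the latter. With the p-values of the authors' deposited table, adjusted over the 12871 genes, 9 factors were lower and 1 higher, against 3.70% and 9.67% of all genes. These were the 8 that fell with limma, together with Apoh (adjusted p = 0.0306) and C4bp (adjusted p = 0.0399) from the authors' deposited table.

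The spread within groups was not even. Over the complement genes, the SD of the 2 knockout samples had a median of 0.04 and reached 0.32 for C6, while that of the 2 control samples had a median of 0.13 and reached 1.15 for C6. Over the coagulation genes the median SD was 0.04 in knockout livers, with 0.25 for Hrg as the highest, and 0.10 in control livers, with 0.40 for Pros1 as the highest. The widest control pairs were those of C6, Cfi, C9, C2 and C8b, of which Cfi alone was higher in control replicate 2.

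Other genes of both pathways, from lists made for this comparison, are given next. Among 27 measured complement regulators and receptors, 11 rose (40.7%) and 4 fell (14.8%), with a median difference of 0.26. Of all genes, 10.8% rose and 4.15% fell. The risers included C3ar1, the receptor of C3a (1.46 ± 0.14 SE, adjusted p = 0.00366), the integrin gene Itgax (0.87, adjusted p = 0.00541), and C1qb (1.01) and C1qc (0.96), which encode chains of C1q and had an adjusted p of 0.00438 each. Of these risers, C1qa, C1qb, C1qc and Vsig4 are also on the macrophage marker list. The 4 that fell were Serping1, the inhibitor of the C1 proteases (-0.56, adjusted p = 0.0258), C1rl (-0.75, adjusted p = 0.0115), Cpn2 (-0.53, adjusted p = 0.0402) and the lectin gene Colec11 (-0.51, adjusted p = 0.0403). C1q, which the classical pathway needs, thus rose in RNA while C1s and C1ra had lower means that did not pass.

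Among 23 measured coagulation inhibitors, cofactors and fibrinolysis genes, 4 rose (17.4%) and 1 fell (4.35%), with a median difference of 0.02. Of all genes, 10.8% rose and 4.15% fell, so the share that fell was near that of all genes. Gas6, a vitamin K-dependent ligand of TAM receptors, was at 9.21 and 9.28 in knockout livers, against 8.09 and 8.22 in control livers, a difference of 1.09 (adjusted p = 0.00377). Plat, the tissue plasminogen activator gene (1.24, adjusted p = 0.00398), F2rl1, a receptor cleaved by proteases (1.01, adjusted p = 0.00803), and Tfpi, the inhibitor of factor VII with tissue factor (0.57, adjusted p = 0.0240), also rose. Hgfac fell by 1.09 (adjusted p = 0.00309). Serpinc1, the gene of antithrombin, stood at 12.22 and 12.32 in knockout livers, against 12.25 and 12.30 in control livers, a difference of -0.0050 (95% interval -0.26 to 0.25).

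In the vitamin K cycle, Vkorc1, the reductase that regenerates vitamin K and the target of warfarin, fell. It was at 10.50 and 10.62 in knockout livers, against 11.10 and 11.17 in control livers, a difference of -0.58 ± 0.11 (SE, adjusted p = 0.0206). Ggcx, the carboxylase that modifies the clotting factors, differed by -0.26 (adjusted p = 0.244).

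None of 9 measured hepatocyte markers passed, with differences from -0.37 for Apoc3 to 0.08 for Ahsg and a median of -0.07. Alb was at 13.66 and 13.68 in knockout livers, against 13.65 and 13.71 in control livers. Macrophage markers rose in 10 of 12 genes, with list means of 9.45 and 9.20 in knockout livers, against 8.36 and 8.44 in control livers. Of the markers of stellate cells and fibroblasts, 7 of 10 rose, with list means of 8.43 and 8.52 in knockout livers, against 7.65 and 7.72 in control livers. Cholangiocyte markers rose in 5 of 7 genes, with list means of 7.42 and 7.61 in knockout livers, against 6.29 and 6.59 in control livers. The largest difference of that list was that of Spp1 (3.235), while Krt19 (-0.315, adjusted p = 0.614) and Krt7 (0.10, adjusted p = 0.679) did not pass. Neutrophil markers rose in 2 of 3 genes. Of 10 sinusoidal endothelial markers 1 fell, and none of 4 lymphocyte, 4 platelet and 3 erythroid markers passed. Over all genes, 10.8% rose and 4.15% fell. The part of these cell types in the differences of the factors was not tested. As miR-122 had no entry among the named probe sets, its loss could not be looked up in these samples.

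**Figure D4:**
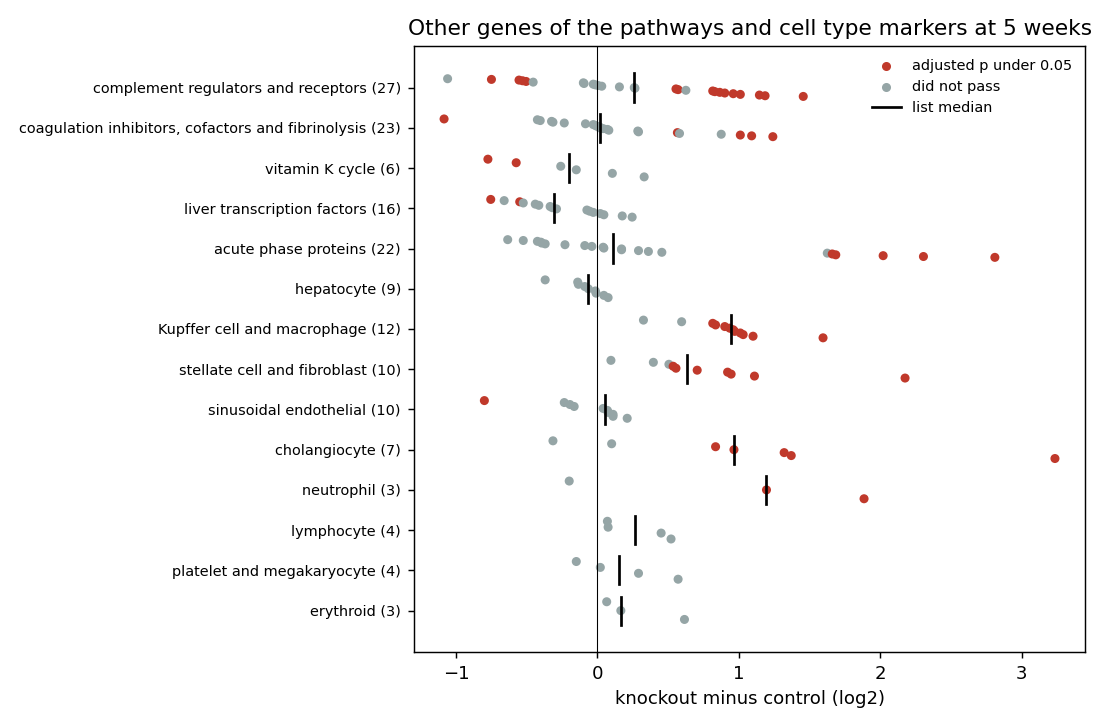
Knockout minus control difference (log2, horizontal axis) of each gene of the other pathway and cell type marker lists (number measured in brackets); red points passed at an adjusted p under 0.05 and black bars are list medians. The macrophage list has a median of 0.95 and the hepatocyte list one of -0.07.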

How the data were processed

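The members and all gene lists were chosen with earlier results of these data known. The authors' deposited log2 signals of 4 liver samples come from Affymetrix Expression Console with RMA, per the submitters' processing notes; versions and genome build are not given there. Per the file headers, the authors' deposited table of 14996 probe sets gives log2 group means, a fold ratio and a p-value; its test and row selection are not stated. RMA equalises the arrays, which hides a shift common to all genes. The number of arrays limits precision.

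Probe sets were named through that table, with symbols updated from RefSeq GRCm38.p6 (13056 by accession, 987 by symbol, 485 by synonym, 380 unchanged, 88 left out as having several or none). The probe set of highest mean was kept per gene, without a filter on low values. In that table, 4 columns of single arrays were not used. limma 3.58.1 in R 4.3.3 (two-sided, Benjamini-Hochberg, threshold 0.05), tested on simulated data, compared knockout with control. Named were all members and, from other lists, up to 4 genes of smallest p plus exceptions; further ones were picked after their values were seen. Alternatives were a filter on low values, the mean of probe sets, quantile normalization once more, median centring, a variance trend, the replicate block, each array left out, the authors' p-values and all probe sets. The repeated quantile normalization and the median centring used only the named genes, not all probe sets of the arrays. Replicate numbers were not taken to pair samples, since the differences between samples 1 and 2 of each genotype correlated over genes with r = 0.043. The planned 8-week comparison was not run. Results of some list genes are not reported here.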

Additional observations from a re-analysis of the deposited data

How the results depend on the processing

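In the knockout, 1394 of 12871 genes had risen and 534 had fallen. With the replicate block these counts were 651 and 186, with 1 complement and 1 coagulation gene lower (Mbl2 and F7), against 5 and 3. Without genes of low values, 680 of 6441 were higher and 395 (6.13%) were lower. All 37 factors stayed in that fit, with 8 (21.6%) lower and 1 higher. With arrays centred on the median of their named genes, 878 genes were lower, as were 6 coagulation genes. The medians were then -0.31 for complement and -0.34 for coagulation. Quantile normalization once more left 3 complement genes lower, with a median of -0.16, and 2 coagulation genes lower. The calls lost were those of C8g (adjusted p = 0.0511), Masp2 (0.0629) and F10 (0.0651). It also called 1 complement gene higher, C4bp, as did the variance trend, the low-value filter and the authors' p-values. With all probe sets of the value table fitted, 0 genes were higher and 0 lower (limma, smallest adjusted p 0.0524), and so 0 complement and 0 coagulation genes; 2101 and 1083 genes were at an unadjusted p under 0.05, and 1245 and 476 passed with the authors' p-values. Leaving out 1 array gave 0 to 0 for each of these counts, with fewer samples in the fit; at an unadjusted p under 0.05, 1580 to 2214 genes were higher and 659 to 1400 lower. The medians then ranged from -0.27 to -0.15 for complement and from -0.32 to -0.20 for coagulation. The direction turned only for genes that did not pass: C8b (-0.02 with arrays centred) and F12 (0.0162 with quantile normalization once more), and with 1 array left out C2 (-0.10 to 0.52), C6 (-0.54 to 1.10), C8b (-0.22 to 0.35), Cfi (-0.0550 to 0.83), F12 (-0.15 to 0.0550) and Fgg (-0.0750 to 0.0650). The causes were not tested. The 8 factors that fell kept their direction under each alternative run, but for most alternatives this was fixed in advance. Both knockout values lay below both control values, so leaving out 1 array could not turn the sign. The variance trend, the replicate block and the low-value filter do not change the difference itself. With 2 samples a group, calls hang on the pooled spread, and smaller differences than these could not be resolved.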

Other observations

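Of 22 measured genes of acute phase proteins, which the liver makes in inflammation, 5 rose in 5-week knockout livers and none fell. The median log2 difference was 0.11. The share that rose was 22.7%, against 10.8% of all genes, while 4.15% of all genes fell. Lcn2, an iron-siderophore binding protein, was at 12.73 and 12.68 in knockout livers, against 9.38 and 10.41 in control livers (2.81 ± 0.31 SE, adjusted p = 0.00473). The serum amyloid genes Saa2 (2.31, adjusted p = 0.00437) and Saa3 (2.02, adjusted p = 0.00137) and the endotoxin receptor gene Cd14 (1.66, adjusted p = 0.00512) also rose. Crp, a pentraxin that can bind C1q, was at 10.82 and 10.84 in knockout livers, against 11.06 and 11.39 in control livers (-0.40, adjusted p = 0.112).

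Among 16 transcription factor genes of hepatocytes, 2 fell and none rose, with a median difference of -0.31. The share that fell was 12.5%, against 4.15% of all genes, while 10.8% of all genes rose. Nr1i3, the xenobiotic receptor CAR, was at 10.62 and 10.19 in knockout livers, against 11.25 and 11.07 in control livers (-0.76 ± 0.17 SE, adjusted p = 0.0325). Foxa2 differed by -0.55 ± 0.12 (SE, adjusted p = 0.0306). Cebpa differed by -0.34 (adjusted p = 0.198) and Hnf4a by 0.05 (adjusted p = 0.831). With any 1 array left out, none of these calls passed, as for all genes.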
